A study of Mus musculus with 6 samples.

Results

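The heat shock proteins and chaperones described here are 10 genes, Hspa8, Hspa1a, Hspa1b, Hsph1, Dnajb1, Hsp90aa1, Hsp90ab1, Hspa5, Hspd1 and Hspe1, chosen by name for their function. All 10 were found by symbol among the 35237 genes of the Cufflinks table and among the 36536 entries of the ALEXA-Seq table, and 8 of them reached an expression of 3 FPKM in at least 1 library. RNA-Seq libraries were made from mouse bone marrow monocytes (BMDM, 3 libraries) and from brain microglia, which the study took from the brainstem (BSM, 3 libraries). BMDM were sorted by FACS as CD11b+ CD45high CD115+ Ly6G- cells and BSM as CD11b+ CD45low CD115low Ly6G- cells, in both cases from C57BL/6 mice aged 6 weeks whose cells were pooled for each library, and the labels name no treatment or altered allele. Replicate 1 of each cell type is labelled male and replicates 2 and 3 female. The replicates are independently generated sets of sorted cells, so each value stands for a pool of mice and not for a single mouse. In each cell type the tissue was dissociated and the cells were passed over Percoll before the sort, so tissue, isolation and cell type cannot be told apart.

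Chaperones bind polypeptides that are not yet folded, or no longer folded, and release them in cycles that consume ATP. The HSP70 proteins work with J-domain co-chaperones, which bring the substrate and stimulate the ATPase, and with exchange factors, which reset it. HSP90 receives clients such as kinases and steroid receptors from HSP70, the endoplasmic reticulum (ER) has its own HSP70, called BiP, and mitochondria fold imported proteins in the chamber built by HSP60 and closed by HSP10. Several of these genes are raised by heat and other stress through heat shock factor 1, which binds repeats of GAA and TTC (heat shock elements), while BiP is raised by unfolded protein in the ER through the ER stress response element.

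Promoter sequences, taken from RefSeq on the build GRCm38.p6, were matched by symbol for 7 of the 10 genes, and the 250 bases before the transcription start were searched on both strands. The motifs searched were the facing pairs TTCNNGAA and GAANNTTC, the 3-unit heat shock element, which is TTCNNGAA followed by NN and TTC and so contains both pairs, and the ER stress response element, which is CCAAT and CCACG with 9 bases of any kind between them. Of 32851 promoters of this length, 7.17% held TTCNNGAA, 6.69% held GAANNTTC, 0.466% held the 3-unit element and 0.113% held the ER stress response element. The Hspa5 promoter is shown because its gene encodes BiP and was the furthest in favor of BSM of the 8 genes tested. It lies at chr2:34771840-34772089 on the plus strand, and its capitals mark the ER stress response element, which begins 65 bases before the start.
Hspa5 promoter: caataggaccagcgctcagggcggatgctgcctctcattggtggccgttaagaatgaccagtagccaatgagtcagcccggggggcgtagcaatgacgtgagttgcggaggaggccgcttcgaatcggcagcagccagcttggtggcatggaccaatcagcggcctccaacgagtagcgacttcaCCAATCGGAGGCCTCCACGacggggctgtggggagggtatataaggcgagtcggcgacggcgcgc
The promoter between Hspe1 and Hspd1 is shown because these genes face away from each other and share it. The Hspe1 window, at chr1:55087898-55088147 on the plus strand, has 215 bases in common with the window of 1 of the 2 annotated Hspd1 starts, and its capitals mark 2 TTCNNGAA pairs and the GAANNTTC pair between them, which overlap and form a 3-unit element in each orientation.
Hspe1 promoter: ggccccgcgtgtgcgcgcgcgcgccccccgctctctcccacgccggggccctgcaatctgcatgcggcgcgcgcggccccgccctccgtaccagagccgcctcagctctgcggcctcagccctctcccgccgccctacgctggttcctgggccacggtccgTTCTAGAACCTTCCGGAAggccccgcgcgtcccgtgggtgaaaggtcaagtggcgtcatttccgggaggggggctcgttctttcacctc
The promoters of Hspa1a and Hspa1b, at chr17:34972157-34972406 and chr17:34959239-34959488 on the minus strand, are shown because these genes are near-identical copies. The windows differed at 3 of 250 bases, and capitals mark the GAANNTTC pair that begins 104 bases before the start in both.
Hspa1a promoter: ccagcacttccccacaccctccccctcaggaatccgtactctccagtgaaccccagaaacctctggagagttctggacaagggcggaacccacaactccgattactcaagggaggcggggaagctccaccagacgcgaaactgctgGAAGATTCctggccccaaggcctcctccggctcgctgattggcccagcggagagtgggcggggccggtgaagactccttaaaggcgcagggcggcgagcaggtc
Hspa1b promoter: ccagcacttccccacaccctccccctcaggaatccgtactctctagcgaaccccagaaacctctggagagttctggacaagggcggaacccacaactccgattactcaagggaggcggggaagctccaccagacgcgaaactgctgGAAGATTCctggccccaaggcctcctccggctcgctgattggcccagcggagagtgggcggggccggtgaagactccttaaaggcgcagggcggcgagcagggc
Hsph1 had 1 TTCNNGAA pair in each of its windows, Dnajb1 had none of these letters, and Hspa8, Hsp90aa1 and Hsp90ab1 are named only. A match describes the letters and not a bound site.

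FPKM scale fragments by transcript length and by the mapped reads of a library, so that genes can be set side by side. That comparison is less certain for genes whose sequence is shared with near-identical copies or whose row covers part of a transcript. Neither table holds reads, so how many lie behind any value is unknown. The FPKM of all genes summed to between 163198.7 and 194184.2 in BMDM and between 68287.8 and 75021.4 in BSM, and the median log2 fold change of the 6364 genes tested was 0.81 in favor of BMDM. Each member is therefore also given relative to that median and, where it matters, after other scalings of the libraries. Log2 fold changes are differences of mean log2(FPKM + 1), positive for BMDM and smaller than the true change for low genes, and they were tested, with their standard error (SE), by limma with Benjamini-Hochberg adjustment over the 6364 genes. The monocyte receptor Ccr2 lay between 136 and 166 FPKM in BMDM and below 0.41 FPKM in BSM, and the microglial receptor P2ry12 lay below 0.29 FPKM in BMDM and between 130 and 209 FPKM in BSM. Csf1r, which encodes the CD115 used in both gates, was higher in BSM. Itgam, which encodes the CD11b of the gates, was listed at 0 FPKM in BSM replicate 2 but lay between 100.5 and 176 FPKM in the other 5 libraries, and its ALEXA-Seq value in that library was 2435 against 1479 to 2910 in the others, so a listed 0 of the Cufflinks table need not be a low level. In the study's quality tables BSM replicate 1 had by far the lowest RNA integrity, no value in a further quality assay, and the lowest concentration. It also had the fewest genes observed. Its RNA and that of BMDM replicate 2 and BSM replicate 2 were below the detection limit of the fluorometer. Without BSM replicate 1, 7 members were called by FPKM and 6 by ALEXA-Seq, as with all libraries. The FPKM log2 fold changes without it were -2.19 for Hspa5, -1.47 for Hspa8, -0.16 for Dnajb1 and 0.92 for Hsp90aa1. They were 1.49 for Hsp90ab1, 1.41 for Hspd1, 1.25 for Hspe1 and 1.17 for Hsph1. The part of its low RNA integrity in single values was not tested.

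Of the 8 members that could be tested, 7 differed between the cell types at an adjusted p under 0.05 in limma, where 54.5% of all genes tested did. Hsp90ab1, Hspd1, Hspe1, Hsph1 and Hsp90aa1 were the ones higher in BMDM (45.3% of all genes), Hspa5 and Hspa8 those higher in BSM (9.22%). In those same 7 genes no library of one cell type overlapped with the other, 5 in favor of BMDM (55.2% of all genes) and 2 in favor of BSM (11.6%). The median log2 fold change of the 8 members was 1.17. Relative to the median gene, Hspa8 lay at -2.37, Dnajb1 at -0.99, Hsph1 at 0.53, Hspd1 at 0.75 and Hspe1 at 0.95. Hspe1 passed the minimum of 3 FPKM through BMDM alone, so its difference follows in part from the choice of genes. The values are from bulk samples, in which fewer cells with a transcript and less of it per cell cannot be told apart.

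**Figure D1:**
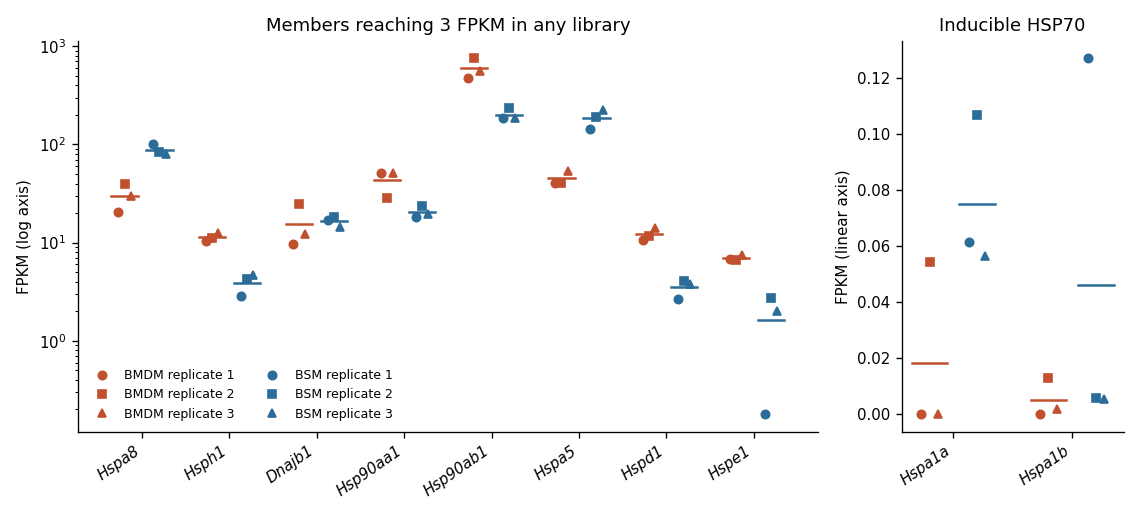
FPKM of the 10 genes in each library, on a log axis for 8 of them and on a linear axis for Hspa1a and Hspa1b, with a short line at the mean of each cell type. Hspa8 and Hspa5 lie higher in every BSM library, 5 genes lie higher in every BMDM library, Dnajb1 overlaps, and Hspa1a and Hspa1b stay below 0.13 FPKM.

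Hspa5 encodes BiP, the HSP70 of the ER (chromosome 2, 34627490 to 34632051 in mm9). It was found at 40.9, 40.4 and 54.2 FPKM in BMDM replicates 1, 2 and 3 and at 143, 193 and 224 FPKM in the BSM replicates. Every BSM library lay well above every BMDM library. The means were 45.2 ± 7.86 (SD, n = 3) and 186 ± 40.6 FPKM (SD, n = 3), a ratio of 4.13, giving a log2 fold change of -2.01 (SE 0.25, limma adjusted p = 0.000491), or -2.82 relative to the median gene. ALEXA-Seq gave values of 448, 500.2 and 587 in BMDM and 1187, 1571 and 1891 in BSM, again without overlap, and a log2 fold change of -1.58 (limma adjusted p = 0.00174). No other gene of GENCODE M21 had a transcript that matched it over 100 bases at 95% identity. Copies outside that annotation were not sought, so whether its reads were split was not tested.

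Hspa8 encodes HSC70, the constitutive HSP70 of the cytosol (chromosome 9, 40609067 to 40613283 in mm9). Its FPKM were 20.5, 39.8 and 29.6 in BMDM and 100.2, 84.4 and 79.8 in BSM, so that each BSM library was higher than each BMDM library. The log2 fold change was -1.57 (SE 0.28, limma adjusted p = 0.00262), and the means were 30.0 ± 9.64 and 88.1 ± 10.7 FPKM (SD, n = 3). The ALEXA-Seq table did not give this difference. There Hspa8 had values of 479, 815 and 641 in BMDM and 809, 729 and 703 in BSM, which overlap, and a log2 fold change of -0.24 (95% confidence interval -0.80 to 0.31, limma adjusted p = 0.409). The gap of -1.33 between the log2 fold changes of the tables was exceeded in size by 13.8% of the 5027 genes tested in both. Matches from 6 other genes, 5 annotated as processed pseudogenes and 1 (Gm26825) as a lincRNA, cover 84.5% of the Hspa8 transcript at 95% identity or more, and none of these genes was found by identifier in either table. The part of these copies in the disagreement was not tested.

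Hspa1a and Hspa1b encode the inducible HSP70 of the cytosol, which is low in resting cells and among the genes most strongly raised by heat. They lie on chromosome 17 at 35106945 to 35108873 and 35094024 to 35095952 in mm9. Hspa1a was listed at 0, 0.0543 and 0 FPKM in BMDM and at 0.0613, 0.107 and 0.0565 FPKM in BSM. Hspa1b was listed at 0, 0.0128 and 0.00170 FPKM in BMDM and at 0.127, 0.00581 and 0.00520 FPKM in BSM. Both were far below the 3 FPKM needed for testing in every library, in BMDM and in BSM. With no minimum their limma adjusted p-values were 0.136 and 0.493. By ALEXA-Seq Hspa1a had values between 0.0588 and 0.836 in BMDM and between 0.987 and 2.91 in BSM, and Hspa1b was listed at 0 in every library but BSM replicate 1 (0.0577). Thus Hspa1a was higher in each BSM library than in each BMDM library in both tables, at low levels, and Hspa1b overlapped.

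The coding sequences of Hspa1a and Hspa1b had 1918 identical bases, 8 mismatches and 3 gap bases in a global alignment, an identity of 99.58% over aligned bases. Each row of the Cufflinks table spans 1929 bases, that is, about the coding sequence alone, whereas the GENCODE M21 transcripts are 2967 and 2803 bases long. A further gene model of the tables, ENSMUSG00000073416, spans both genes (chromosome 17, 35093377 to 35109098 in mm9) and had 0.0474, 0.05 and 0.00417 FPKM in BMDM and 0.473, 0.418 and 0.467 FPKM in BSM. That model too stayed below 1 FPKM. Its ALEXA-Seq values were 0.849, 0.317 and 0.0409 in BMDM and 3.58, 5.37 and 6.48 in BSM, without overlap and in each BSM library above those of Hspa1a. How reads in the shared sequence were divided among these rows was not tested, and the values of the pair are uncertain for that reason.

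Hsp90ab1, the constitutive HSP90 of the cytosol (chromosome 17, 45704724 to 45710220 in mm9), had the highest FPKM of the 10 genes in all libraries except BSM replicate 3, where Hspa5 was higher. It was found at 479, 753 and 561 FPKM in BMDM and at 186, 234 and 186 FPKM in BSM, with no overlap. The means of 598 ± 141 and 202 ± 27.8 FPKM (SD, n = 3) had a ratio of 2.96, and the log2 fold change was 1.54 (SE 0.24, limma adjusted p = 0.00126), or 0.74 relative to the median gene. ALEXA-Seq gave 8779, 15295 and 9804 in BMDM against 3634, 3761 and 2977 in BSM, with a log2 fold change of 1.67 (limma adjusted p = 0.00262).

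Hsp90aa1, its stress-inducible paralog (chromosome 12, 111928815 to 111940938 in mm9), had 50.9, 28.3 and 51.0 FPKM in BMDM and 18.4, 23.8 and 19.7 FPKM in BSM. BMDM replicate 2 was the lowest BMDM library and lay just above the highest BSM library. The log2 fold change was 1.00 (SE 0.29, limma adjusted p = 0.0207), 0.19 above that of the median gene. It was no longer differential without BMDM replicate 1 (0.86, limma adjusted p = 0.0723), BMDM replicate 3 (0.86, 0.0852) or BSM replicate 3 (0.97, 0.0544). In the ALEXA-Seq table BMDM replicate 2 did not stand apart, with values of 349, 332 and 415 in BMDM and 145, 161 and 171 in BSM, and the log2 fold change was 1.19 (limma adjusted p = 0.00274).

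Rows of near-identical copies of Hsp90aa1 were also listed in the Cufflinks table. The copy Gm12346, annotated as a transcribed processed pseudogene, whose matches cover 68.7% of the Hsp90aa1 transcript at up to 99.47% identity, was listed at 30.7, 24.3 and 36.4 FPKM in BMDM and at 6.38, 7.71 and 7.70 FPKM in BSM, whereas its ALEXA-Seq values were at most 42.3. Together with the lower copy Gm5844 it held 38.7% to 48.1% of the summed FPKM of the gene and its copies in BMDM and 25.6% to 29.5% in BSM. With the copies added, a step chosen after the values were seen, Hsp90aa1 came to 83.0, 54.6 and 89.1 FPKM in BMDM and to 25.7, 31.9 and 28.0 FPKM in BSM, and its log2 fold change became 1.35 (limma adjusted p = 0.0035). Whether the copies themselves are transcribed was not tested.

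**Figure D2:**
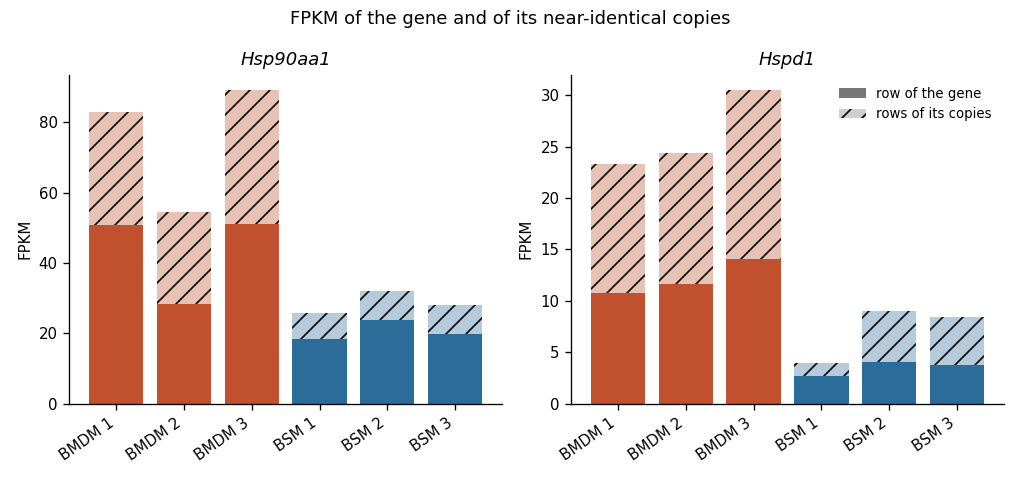
FPKM of Hsp90aa1 and Hspd1 in each library (solid) with the summed FPKM of their near-identical copies stacked on top (hatched), both axes starting at 0. The copies add 26.3 to 38.1 FPKM to Hsp90aa1 in BMDM and 7.31 to 8.23 FPKM in BSM, and they hold over 50% of the Hspd1 sum in 5 of the 6 libraries.

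Hsph1 encodes HSP110, an exchange factor of HSP70 (chromosome 5, 150416862 to 150438951 in mm9). Its FPKM were 10.4, 11.1 and 12.4 in BMDM and 2.85, 4.24 and 4.67 in BSM, well apart, with a log2 fold change of 1.34 (SE 0.24, limma adjusted p = 0.00284). ALEXA-Seq gave nearly the same difference, 1.31 (limma adjusted p = 0.00864), from values of 91.0, 98.3 and 104 in BMDM and 29.6, 42.0 and 47.0 in BSM. Without BMDM replicate 3 the ALEXA-Seq value was 1.26 and its limma adjusted p 0.0518.

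Dnajb1 encodes HSP40, a J-domain partner of HSP70 (chromosome 8, 86132172 to 86135801 in mm9). Its FPKM were 9.69, 24.6 and 12.3 in BMDM and 17.0, 18.0 and 14.4 in BSM. The BMDM libraries enclosed all of the BSM libraries, since BMDM replicate 2 was the highest of the 6. The log2 fold change was -0.18 (95% confidence interval -0.98 to 0.62, limma adjusted p = 0.674), an interval that leaves room for a change of either direction. Without BMDM replicate 1 it was 0.08. The same library was the highest by ALEXA-Seq (563, against 205 and 257 in the other BMDM libraries and 448, 446 and 342 in BSM), where the log2 fold change was -0.40 (limma adjusted p = 0.409) with all libraries and -0.83 (limma adjusted p = 0.0387) without BMDM replicate 2. In BMDM replicate 2 Hsp90ab1 and Hspa8 were also the highest of their group in both tables. The same library had the highest summed FPKM of granulocyte (436, against 58.1 and 97.7 in the other BMDM libraries), erythroid (38.8, against 6.81 and 6.92) and lymphocyte genes (8.59, against 0.51 and 1.37). In the study's quality tables it also had the fewest sorted cells and the lowest share of mapped reads of the 6. The part of other cells, of cell number and of mapping in its values was not tested.

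Hspd1 encodes HSP60, the mitochondrial chaperonin (chromosome 1, 55134679 to 55145087 in mm9). It had 10.7, 11.7 and 14.1 FPKM in BMDM and 2.68, 4.05 and 3.78 FPKM in BSM, with no overlap and a log2 fold change of 1.55 (SE 0.24, limma adjusted p = 0.00137). ALEXA-Seq values were 315, 370.0 and 402 in BMDM and 87.3, 137 and 130 in BSM, a log2 fold change of 1.63 (limma adjusted p = 0.00202). The processed copy Hspd1-ps3, which covers 71.1% of the transcript at up to 98.96% identity, was listed at 12.6, 12.7 and 16.3 FPKM in BMDM and at 1.3, 4.99 and 4.67 FPKM in BSM, about as high as Hspd1 itself in all libraries but BSM replicate 1. In the ALEXA-Seq table this copy was at most 1.27. With it added, the log2 fold change of Hspd1 was 1.79 (limma adjusted p = 0.00258).

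Hspe1 encodes HSP10, the lid of the same chaperonin, and its model (chromosome 1, 55144976 to 55148151 in mm9) overlaps with that of Hspd1. Its FPKM were 6.75, 6.66 and 7.52 in BMDM and 0.179, 2.72 and 2.01 in BSM. BSM replicate 1, the library of lowest RNA integrity, was far below the others of its group, but not by ALEXA-Seq, where the BSM values were 115, 124 and 96.4 and the BMDM values 323, 460.4 and 423. The log2 fold change was 1.75 by FPKM (SE 0.42, limma adjusted p = 0.00981), 1.25 without BSM replicate 1 (limma adjusted p = 0.00135), and 1.83 by ALEXA-Seq (limma adjusted p = 0.000811). The FPKM ratio of Hspd1 to Hspe1 was 1.59, 1.75 and 1.88 in BMDM and 1.49 and 1.88 in BSM replicates 2 and 3, against 15.0 in BSM replicate 1. As the strand of the reads is not given in the sources used here, reads in the overlap of these models cannot be assigned to either gene with certainty.

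Setting the members against each other within a library gives a measure that no factor applied to a whole library can move. Hsp90ab1 made up 76.2%, 82.2% and 75.6% of the summed FPKM of the 10 genes in BMDM and 39.5%, 41.5% and 34.8% in BSM. Hspa5 made up 6.50%, 4.41% and 7.31% in BMDM and 30.4%, 34.2% and 41.9% in BSM, and Hspa8 3.26%, 4.34% and 3.99% against 21.3%, 15.0% and 15.0%. Of the summed ALEXA-Seq values, whose scaling by length is not given in the sources used here, Hsp90ab1 made up 79.9%, 83.0% and 77.6% in BMDM and 56.3%, 53.9% and 46.8% in BSM, Hspa5 at most 4.64% in BMDM and between 18.4% and 29.7% in BSM, and Hspa8 at most 5.07% in BMDM and between 10.5% and 12.5% in BSM. The share of Hsp90ab1 was thus lower, and those of Hspa5 and Hspa8 higher, in each BSM library in both tables. The ratio of Hspa5 to Hsp90ab1 was 0.0854, 0.0536 and 0.0966 in BMDM and 0.770, 0.823 and 1.20 in BSM, 11.9-fold higher in BSM, and the ALEXA-Seq values gave a ratio 9.61-fold higher in BSM, without overlap in either. An exact permutation test, two-sided, gave p = 0.1 for each of these ratios, the smallest that 3 libraries against 3 allow. The ratios show that the genes differed unequally and do not say which of them changed.

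**Figure D3:**
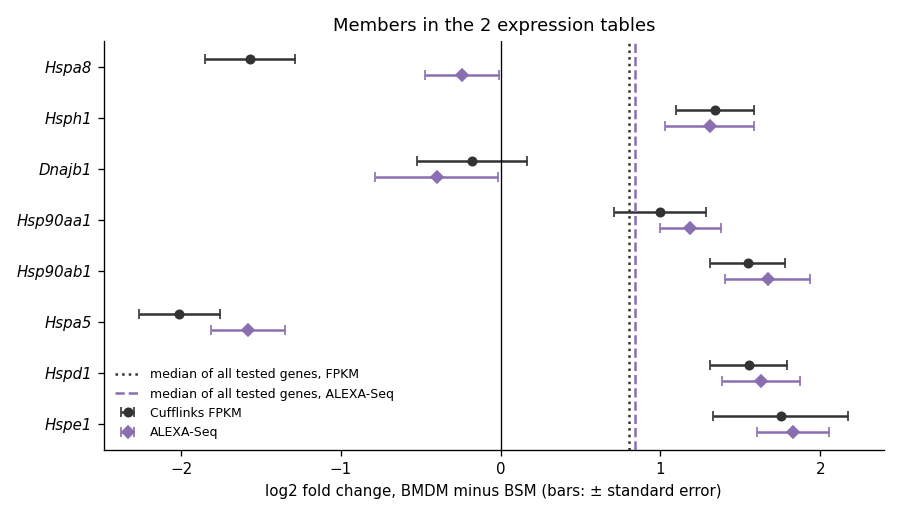
Log2 fold change (BMDM minus BSM) of the 8 members tested, with its standard error, from FPKM (circles) and from ALEXA-Seq (diamonds), beside the median of all genes tested in each table, 0.81 and 0.84. The tables lie close together except for Hspa8, at -1.57 and -0.24, and Hspa5, at -2.01 and -1.58.

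Over all members, ALEXA-Seq called 6 of 8, 5 higher in BMDM and 1 (Hspa5) higher in BSM, where it called 47.9% of all genes tested, 37.1% higher in BMDM and 10.9% higher in BSM. The difference between the log2 fold changes of the tables (FPKM minus ALEXA-Seq) lay between -0.43 and 0.22 for the members other than Hspa8, and between -2.36 and 0.97 for the middle 90% of the 5027 genes tested in both. These tables were made from the same libraries, so a call in both is no replicate of the experiment.

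Which members differed depended on how the libraries were scaled. Hspa5 and Hspa8 were higher in BSM in the FPKM as deposited and after each of the 3 other scalings, with log2 fold changes between -3.31 and -2.01 for Hspa5 and between -2.86 and -1.57 for Hspa8, and all limma adjusted p-values under 0.05. By ALEXA-Seq, Hspa8 was higher in BSM after quantile normalization (-0.93, limma adjusted p = 0.00696) and at equal sums (-1.53, 0.000776). Quantile normalization, which moved the median of all genes to 0.02 and called 40.9% of them (21.7% higher in BMDM and 19.3% in BSM), called 6 of 8 members by FPKM, with Hsp90ab1, Hspd1 and Hspe1 higher in BMDM and Hspa5, Hspa8 and Dnajb1 (-0.95, limma adjusted p = 0.0417) higher in BSM. With all libraries at the same FPKM sum, where the median of all genes was -0.23 and 40.1% of them were called (15.2% and 24.9%), the calls were Hspa5, Hspa8 and Dnajb1 (-1.43, limma adjusted p = 0.00841), all higher in BSM. Hsp90aa1 turned its direction there, at -0.28 (limma adjusted p = 0.515). Among these scalings, Hsp90ab1, Hspd1, Hspe1, Hsph1 and Hsp90aa1 were all called higher in BMDM only as deposited, by FPKM and by ALEXA-Seq. After quantile normalization 3 of the 5 kept their call by FPKM, and Hspd1 and Hspe1 by ALEXA-Seq. At equal FPKM sums or after upper quartile scaling 0 of the 5 were called by limma (0 and 2 at an unadjusted p under 0.05). Upper quartile scaling called 2072 of the 6364 genes tested, 1303 higher in BMDM and 769 in BSM. By ALEXA-Seq at equal sums Hspe1 alone of the 5 was called higher in BMDM (0.55, limma adjusted p = 0.0498).

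**Figure D4:**
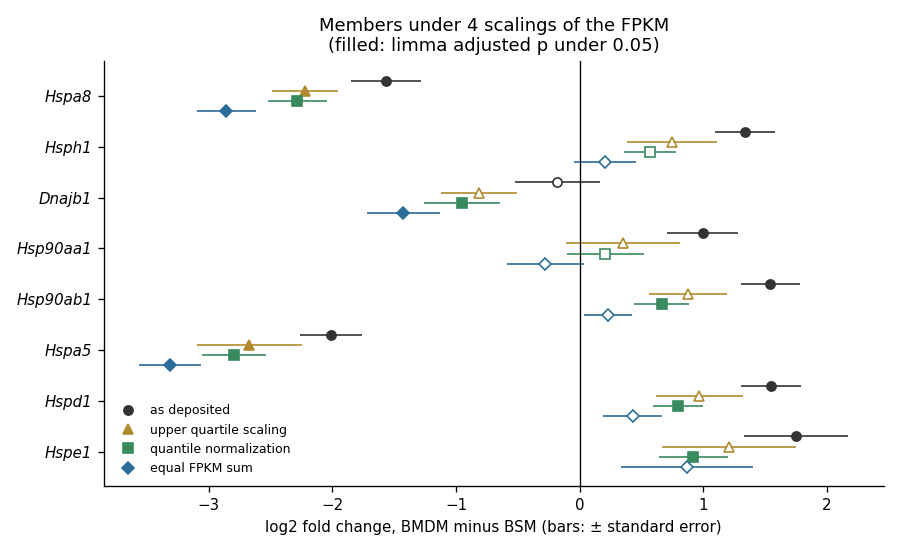
Log2 fold change (BMDM minus BSM, with its standard error) of the 8 members under 4 scalings of the FPKM, filled where the limma adjusted p is under 0.05. Hspa5 and Hspa8 stay filled and below 0 throughout, whereas the 5 genes that are higher in BMDM as deposited move toward 0, and Dnajb1 moves from -0.18 to -1.43.

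Among 97 other genes of the chaperone network, in 10 lists, 59 reached the minimum, and 32 of them differed in limma (54.2%, against 54.5% of all genes), 30 of them in favor of BMDM and 2 of BSM, at a median log2 fold change of 0.92 against 0.81 for all genes. Of all genes, 45.3% were called in favor of BMDM and 9.22% of BSM. At equal FPKM sums the split was 2 and 12, where 15.2% and 24.9% of all genes were called. Of the 30, 9 (Hspa4l, Dnajc8, Dnajc9, Cdc37, Fkbp4, Cct5, Cct6a, Cct7 and Hsf2, named for this after their values were seen) stayed under 3 FPKM in all BSM libraries, and of the 2, Ppp1r15a stayed under it in all BMDM libraries, so that these 10 passed the minimum only through the group where they were higher and their difference follows in part from the choice of genes. The partners of HSP90 were among those higher in BMDM, 5 of 8 tested (median 1.36), such as the ATPase activator Ahsa1 (15.7 ± 2.24 against 3.08 ± 1.87 FPKM, SD, n = 3, log2 fold change 2.16) and the p23 gene Ptges3 (81.4 ± 4.97 against 22.7 ± 5.79 FPKM, 1.82). The subunits of TRiC, the cytosolic chaperonin of actin and tubulin, were higher in BMDM in 6 of 7 tested, 3 of which (Cct5, Cct6a and Cct7) passed the minimum through BMDM alone, with Cct2 at 1.84 and Cct5 at 1.78. At equal sums 0 of these 15 genes were called in limma, where 3 were higher in BMDM at an unadjusted p under 0.05 and 1 was higher in BSM.

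The other genes of the ER were compared with Hspa5 in view. Of 14 other ER chaperones and folding enzymes tested, 5 were higher in BMDM in limma (45.3% of all genes), at a median log2 fold change of 0.63. Among the 5 were the disulfide isomerase P4hb (1.89) and the J-domain reductase Dnajc10 (1.73). The number higher in BSM was 0 in limma (9.22% of all genes), also at an unadjusted p under 0.05 and by ALEXA-Seq. At equal sums 5 of the 14 were higher in BSM (24.9% of all genes), with the log2 fold change of Hspa5 at -3.31. Of 6 regulators of the unfolded protein response, 2 were higher in BMDM and 1 in BSM (45.3% and 9.22% of all genes). The 2 were Atf6 (1.23) and Xbp1 (0.87). The 1 was the phosphatase subunit Ppp1r15a (-0.74), which had 2.00, 2.07 and 2.09 FPKM in BMDM and 4.90, 3.52 and 3.94 FPKM in BSM.

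**Figure D5:**
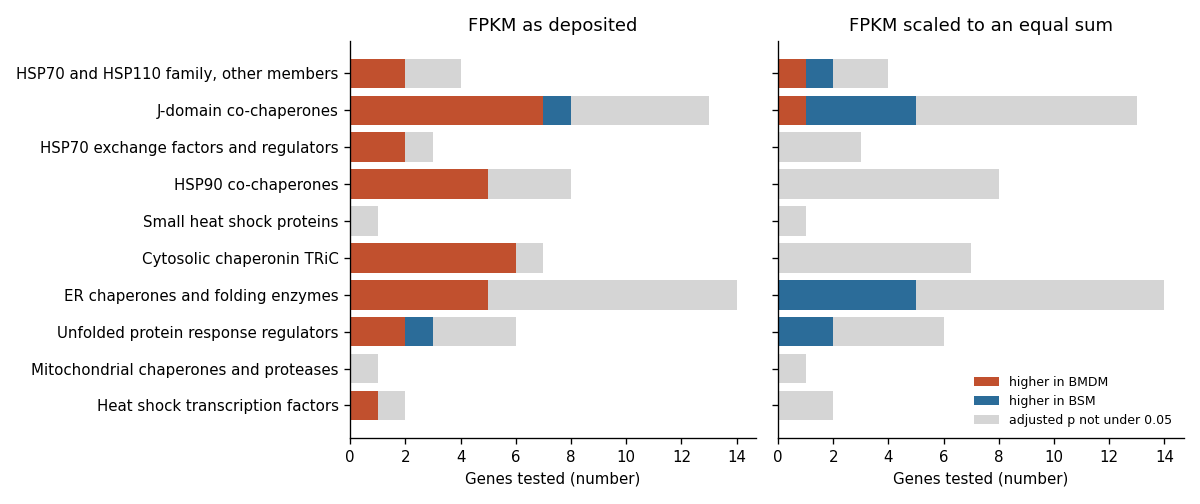
Genes tested in each of the 10 lists of other chaperone genes, split into those higher in BMDM, higher in BSM and not called by limma, for FPKM as deposited (left) and at equal FPKM sums (right). As deposited 30 are higher in BMDM and 2 in BSM, and at equal sums 2 and 12.

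Among 13 J-domain co-chaperones tested, the class to which Dnajb1 belongs, 7 were in favor of BMDM and 1 of BSM (45.3% and 9.22% of all genes). At equal sums 1 and 4 were (15.2% and 24.9% of all genes). The histone chaperone Dnajc9 had the largest difference, with 16.5, 23.9 and 22.7 FPKM in BMDM and 0.392, 1.67 and 1.13 FPKM in BSM (log2 fold change 3.45), and passed the minimum through BMDM alone, followed by Dnaja2 (1.81). Dnajb4, a close relative of Dnajb1, was the 1 higher in BSM, at 4.13, 3.45 and 5.68 FPKM in BMDM and 24.3, 11.1 and 10.6 FPKM in BSM (-1.52, limma adjusted p = 0.0086). Of 4 other HSP70 and HSP110 genes tested 2 were higher in BMDM, Hspa4l (2.41, which passed the minimum through BMDM alone) and Hspa4 (1.32), both relatives of Hsph1, and of 3 exchange factors tested 2 were, with Bag1 at 1.74. The 1 small heat shock protein tested, Hspb6, and the 1 further mitochondrial chaperone tested, Dnajc19, both named after their values were seen, were not called, with log2 fold changes of 1.19 and 0.56. Of the small heat shock proteins 6 of 8 were listed at 0 in all BMDM libraries and 2 in all BSM libraries. The 6 were low in BSM too, at 1.09 FPKM or less. Hspb6 had 4.28, 0.883 and 3.48 FPKM in BMDM and at most 1.72 FPKM in BSM, which overlap. The share of all genes listed at 0 was not counted, so these counts show no difference between the cell types.

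The heat shock factors were low. Hsf1 was listed at 0.581, 0.639 and 0.508 FPKM in BMDM and at 0.125, 0.606 and 0.341 FPKM in BSM and was not tested, and its libraries overlapped. Hsf2 had 4.39, 9.68 and 6.25 FPKM in BMDM and 2.00, 1.40 and 1.47 FPKM in BSM (log2 fold change 1.52). It passed the minimum through BMDM alone, so its call, the 1 among 2 factors or regulators tested, follows in part from the choice of genes, and it was lost at equal sums (0.54, limma adjusted p = 0.174).

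Immediate early genes, which respond within minutes to stimulation and to tissue dissociation, were compared as well. Of 11 tested, 6 were higher in BSM (9.22% of all genes) and 0 in BMDM in limma by FPKM, with the same counts at an unadjusted p under 0.05 and by ALEXA-Seq. Of the 6, 3 (Fosb, Jund and Egr1) passed the minimum through BSM alone. At equal sums all 11 were higher in BSM (24.9% of all genes). Nr4a1, which was too low to be tested, lay between 0.637 and 1.34 FPKM in BMDM and at most 0.112 FPKM in BSM. The summed FPKM of the immediate early genes, tested or not, lay between 213 and 454 in BMDM and between 982 and 1650 in BSM. Most of each sum lay in Zfp36, named for this after the values were seen. It had 157, 200.4 and 335 FPKM in BMDM and 939, 653 and 573 FPKM in BSM. The inducible Hspa1a and Hspa1b stayed below 0.13 FPKM in the same BSM libraries, values that are uncertain because the genes share sequence. Hspa1a was higher in each BSM library than in each BMDM library by FPKM and by ALEXA-Seq, whereas Hspa1b overlapped. By ALEXA-Seq Hspa1a lay between 0.987 and 2.91 in BSM and between 0.0588 and 0.836 in BMDM. The model that spans both genes had 3.58, 5.37 and 6.48 in BSM and at most 0.849 in BMDM by ALEXA-Seq. The part of cell isolation in the differences of the chaperones was not tested.

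Markers of other cells were compared in the same way. Summed over 7 granulocyte genes, FPKM lay between 58.1 and 436 in BMDM and at most 0.0318 in BSM, with 5 of the 7 at 0 in all BSM libraries. Erythroid genes summed to between 6.81 and 38.8 FPKM in BMDM and at most 0.171 in BSM, and lymphocyte genes to between 0.51 and 8.59 and at most 0.178. Oligodendrocyte genes summed to between 7.06 and 12.8 FPKM in BMDM and between 1.78 and 2.13 in BSM, while Mog and Mobp were at 0 in BMDM. Astrocyte genes summed to between 0.259 and 0.397 FPKM in BMDM and between 5.32 and 9.54 in BSM with Gfap at 0 in both, the BSM sums lying almost wholly in Slc1a3 (9.51, 5.18 and 6.71 FPKM) and the other astrocyte genes at most 0.144 FPKM there, neuronal genes to at most 0.249 in either and endothelial genes to at most 3.82. Of the sorted types, 6 of 8 monocyte genes were called higher in BMDM and 1 (Csf1r) in BSM, and 9 of 10 microglia genes were called higher in BSM. The part of other cells in the differences of the chaperones was not tested.

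The genes whose profile over the 6 libraries was nearest to the mean log2(FPKM + 1) profile of the inducible members Hspa1a, Hspa1b, Hsph1, Dnajb1 and Hsp90aa1, by the root mean square difference of centred values, were Cand1 (0.0563), Ppp1r2 (0.0651), Lrrc58 (0.0765), 9130011J15Rik (0.0812) and Brd1 (0.0852). The mean profile has small differences, and 2 of the 5 genes are near 0 in all libraries. Cand1, for example, lay between 3.69 and 4.07 FPKM in BMDM and between 2.78 and 2.94 FPKM in BSM.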

How the data were processed

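RNA-Seq was performed by the authors on 3 BMDM and 3 BSM libraries of amplified cDNA. The submitters' processing notes name CASAVA 1.7.0, TopHat 1.3.1, Bowtie 0.12.7, Cufflinks 1.0.3 and the build mm9. The authors deposited FPKM for each gene, and a second table of ALEXA-Seq expression signal, linear values with a unit and normalization that are not given in the sources used here. Positions of genes are mm9, counted from 1, and promoter positions GRCm38.p6.

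Members were found by symbol. Genes with at least 3 FPKM in at least 1 library were compared on log2(FPKM + 1) with limma 3.58.1 (trend) in R 4.3.3, and the 6364 highest ALEXA-Seq genes likewise. Benjamini-Hochberg adjustment and a threshold of 0.05 were used, and the fit was checked on simulated data. Copies were sought with blastn 2.17.0 among GENCODE M21 transcripts (matches of at least 100 bases and 95% identity). Python 3.11.15, pandas 2.3.3, numpy 2.4.6, scipy 1.17.1 and matplotlib 3.10.9 were used. The members, the lists and the tests were chosen with earlier results of these data known. Named were all members, Hsf1, Hsf2, the label checks, the 5 nearest profiles, and in each list up to 2 genes per direction with the largest log2 fold change called in both tables. Pseudocounts, minimums, scalings, trend, library weights, a replicate block and leaving out libraries were tried.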

Additional observations from a re-analysis of the deposited data

How the results depend on the processing

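Of 202 recalculations of single members, 170 kept their direction and side of the threshold. The members called by FPKM numbered 2 after upper quartile scaling and 3 at equal sums, against 7, and between 6 and 7 with 1 library left out. By ALEXA-Seq they numbered between 5 and 7 with 1 library left out, against 6. The other chaperone genes called, 32 as deposited, numbered 19 after quantile normalization, 10 after upper quartile scaling, 14 at equal sums and 49 with library quality weights, and between 25 and 37 with 1 library left out. Of the 6364 genes tested by FPKM, limma called 3470 as deposited and 2605 after quantile normalization. It called 2072 after upper quartile scaling, 2553 at equal sums and 4703 with library quality weights. At equal sums Hsp90aa1 reversed, to -0.28 by FPKM and -0.092 by ALEXA-Seq, and Dnajb1 by FPKM reversed to 0.08 without BMDM replicate 1 (range -0.55 to 0.08 with 1 library left out). With no minimum Hsp90aa1 lost its call (limma adjusted p = 0.0578). The causes were not tested.

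Deviations of same-numbered libraries from the mean of their group correlated at -0.02, -0.01 and 0.13, and those of the other pairs between -0.11 and 0.07. With 3 libraries per group these values cannot show whether the replicate numbers paired the libraries. With the replicate number as a block 7 members were called by FPKM, 6 by ALEXA-Seq and 33 other chaperone genes.

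With 3 libraries in each group, and depth per gene unknown, low values such as those of Hspa1a, Hspa1b and Hspe1 are the least certain. The limma p-values set each difference against the spread between libraries, moderated over all genes tested. That spread holds differences between pools of mice together with those of sex, sorting and library preparation.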
